A study of Mus musculus with 10 samples.

Results

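Ddx41 and the DEAD-box helicase family were examined in R2 cells, the CD71+Ter119+ erythroid progenitors of mouse bone marrow, by RNA-seq. Members were all rows of the count table whose symbol consists of Ddx, a number and optional small letters, with Ddx3x and Ddx3y left out, which gave 36 of 24421 genes. The comparison asks whether Ddx41 stood alone when 1 of its alleles was lost or whether related helicases changed with it. Recipient BoyJ mice were lethally irradiated and given 1000000 bone marrow cells from Rosa-CreERT2 donors that carried 1 floxed Ddx41 allele or none and were Trp53+/+ or Trp53+/-. All 4 genotypes carried Rosa-CreERT2, a Cre made in all tissues that acts after tamoxifen, and all were given 1 mg of tamoxifen per day in 2 rounds of 5 days, 2 days apart. Cells were sorted 8 weeks post-transplant, and the sample labels name 4 genotypes: Ddx41+/+Trp53+/+ (mice 10, 11 and 12), Ddx41+/-Trp53+/+ (mice 32 and 34), Ddx41+/+Trp53+/- (mice 22, 23 and 24) and Ddx41+/-Trp53+/- (mice 46 and 47). The sort did not use CD45, so cells of the recipient could be present, and the floxed exons are not given in the sources used here. Each library came from 1 recipient mouse, so the p-values rest on the spread between recipients. The number of marrow donors per genotype is not given in the sources used here, so mice of 1 genotype could share a donor.

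DEAD-box proteins bind RNA, use ATP to unwind short duplexes or displace proteins, and are named after 4 residues of a motif that takes part in ATP hydrolysis. They act at nearly every step in the life of an RNA, from transcription and splicing to ribosome assembly, export, translation and decay. Ddx41 associates with the late spliceosome, the complex in which introns are removed, and its human counterpart is mutated in inherited and acquired myeloid neoplasms. Most other members have roles of their own in the cell. The rule goes by symbol alone, so not every member is a DEAD-box RNA helicase. Ddx11 is a DNA helicase. Ddx26b, listed as Ints6l in GENCODE M21, is a relative of a subunit of the Integrator complex and is not known as a helicase.

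The libraries held 7866648 to 20283930 counts, and mouse 34 had the fewest. All 36 genes were present in the table and 34 passed the filter on low counts. Ddx25 and Ddx43, both known from germ cells, did not pass, with at most 7 and 9 counts in any mouse. The 36 genes took 0.319 to 0.346% of all counts. The erythroid marker genes summed to 40870 to 46650 CPM (read counts scaled to 1000000 per library) in all mice, while under these symbols the adult globin gene Hbb-bt was at 0 in every mouse and Hba-a1 and Hbb-bs did not exceed 1.28 and 0.826 CPM. Neutrophil markers summed to 3362 to 5870 CPM and T cell markers to 1.28 to 4.60 CPM. B cell markers (4 of 5 listed genes in the table) summed to 31.3 to 66.0 CPM in Ddx41+/+Trp53+/+, 80.7 to 127 CPM in Ddx41+/-Trp53+/+, 102 to 140 CPM in Ddx41+/+Trp53+/- and 108 to 121 CPM in Ddx41+/-Trp53+/- mice. Macrophage markers summed to 153 to 296, 193 to 268, 133 to 182 and 210 to 269 CPM in the same order.

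The motif that names the family can be read in the coding sequences of its members. Ddx41 lies at chr13:55530410-55536658 on the minus strand of mm10. The 12 bases that code for its DEAD box are coding bases 1063 to 1074 of 1899, in exon 10 of 17 of transcript ENSMUST00000224765.1, and the printed window covers chr13:55533032-55533079. A run of 12 bases that codes for these 4 residues in frame was found in 27 of the 36 members and in 0.754% of the 21764 genes with a complete coding sequence. Ddx10 held 2 of them. The other 9 members, Ddx11, Ddx21, Ddx28, Ddx39, Ddx39b, Ddx50, Ddx52, Ddx58 and Ddx60, held no such run in their longest coding sequence. The windows of Ddx41, of the 4 other splicing helicases with the run and of Ddx5 and Ddx17, whose windows are among the most like that of Ddx41, are shown with the run in capitals, from 12 bases before it to 24 after it.
Ddx41: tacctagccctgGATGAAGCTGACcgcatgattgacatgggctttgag
Ddx23: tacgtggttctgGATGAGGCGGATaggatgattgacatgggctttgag
Ddx42: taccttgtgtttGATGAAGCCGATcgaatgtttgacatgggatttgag
Ddx46: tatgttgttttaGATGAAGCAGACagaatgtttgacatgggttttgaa
Ddx20: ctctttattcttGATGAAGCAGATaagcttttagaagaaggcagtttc
Ddx5: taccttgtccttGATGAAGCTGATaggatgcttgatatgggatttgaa
Ddx17: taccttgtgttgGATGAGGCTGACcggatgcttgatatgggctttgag

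The windows are DNA from the GENCODE M21 transcripts. That of Ddx23 lies in exon 13 of 17 at chr15:98648610-98648657, that of Ddx46 in exon 13 of 23 at chr13:55660746-55660793 and that of Ddx20 in exon 4 of 11 at chr3:105683430-105683477. The windows of Ddx5 (chr11:106785169-106785216) and Ddx17 (chr15:79538851-79538898) each lie in exon 7 of 13, and that of Ddx42 spans the junction of exons 11 and 12 of 18 between bases 106238562 and 106239137 of chromosome 11. Ddx42 and Ddx46 are on the plus strand and the others on the minus strand. Of the 48 bases, 40 were the same in Ddx17 as in Ddx41, 39 in Ddx23, 38 in Ddx42 and in Ddx5, 35 in Ddx46 and 22 in Ddx20. Ddx26b, counted among the 27 with the run, had the fewest in common, 17. Among the 28 runs of the family, 12 distinct 12-base runs occurred, so the same 4 residues were spelt in many ways. The windows of Ddx19a and Ddx19b were identical. Of the 75-base stretches of their longest transcripts, 27.5% of those of Ddx19a and 10.4% of those of Ddx19b were shared between them. A single 75-base read from such a stretch cannot be assigned by its own bases. Over whole transcripts, 5.12% of the 75-base stretches of Ddx41 also occurred in another transcript, all of it in the overlapping antisense transcript Gm46416, which is not in the count table.

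Ddx41 was lower in every Ddx41+/- mouse than in every Ddx41+/+ mouse. In Ddx41+/+Trp53+/+ mice 10, 11 and 12 it had 476, 450 and 327 counts, or 25.1, 21.9 and 22.6 CPM. In Ddx41+/-Trp53+/+ mice 32 and 34 it had 227 and 130 counts, or 13.8 and 16.5 CPM. The highest Ddx41+/- mouse of this pair of genotypes was thus below the lowest Ddx41+/+ mouse. In Ddx41+/+Trp53+/- mice 22, 23 and 24 it had 266, 371 and 398 counts, or 26.6, 22.9 and 23.2 CPM, and in Ddx41+/-Trp53+/- mice 46 and 47 it had 215 and 279 counts, or 12.5 and 15.6 CPM. The groups did not overlap here either.

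Over both Trp53 genotypes, the level of Ddx41 in Ddx41+/- R2 cells was 61.4% of that in Ddx41+/+ R2 cells (95% interval 52.4 to 71.9%). The log2 fold change was -0.70 (SE 0.11, adjusted p = 0.0173, edgeR's quasi-likelihood test with Benjamini-Hochberg adjustment, 4 against 6 mice), and an exact permutation test within Trp53 genotypes gave p = 0.01, the smallest its 100 arrangements allow. This pooled interval lay above 50%, the level that would be left if 1 allele gave no counted reads and the other were unchanged, as did that with Trp53+/+ (51.5 to 81.4%), while that with Trp53+/- (46.5 to 72.9%) held it. This call was lost when mouse 10, 32 or 46 was left out (adjusted p = 0.0501, 0.127 and 0.0591), with log2 fold changes of -0.68, -0.67 and -0.63. In bulk cells, less RNA per cell and fewer cells with the RNA cannot be told apart.

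Within each Trp53 genotype the difference pointed the same way but was not called. The log2 fold change was -0.63 (SE 0.16, adjusted p = 0.0887, edgeR's quasi-likelihood test) with Trp53+/+ and -0.78 (SE 0.15, adjusted p = 0.177) with Trp53+/-. DESeq2, edgeR's likelihood ratio test and a fit without a filter on low counts called Ddx41 in both, with adjusted p between 0.0178 and 0.0250 for Trp53+/+ and between 0.00215 and 0.00781 for Trp53+/-. Exact permutation tests of 3 against 2 mice gave p = 0.1 in each, the smallest possible. The difference between these effects was -0.15 (SE 0.22, 95% interval -0.61 to 0.30), so a change of Ddx41 dosage with the Trp53 genotype was not detected and this interval bounds its size. The summed B cell markers were higher in the Ddx41+/- mice among Trp53+/+ mice and overlapped among Trp53+/- mice, where Ddx41 was also lower. Macrophage markers did the reverse, overlapping among Trp53+/+ mice and lying higher in the Ddx41+/- mice among Trp53+/- mice. The part of these cells in the result was not tested.

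**Figure D1:**
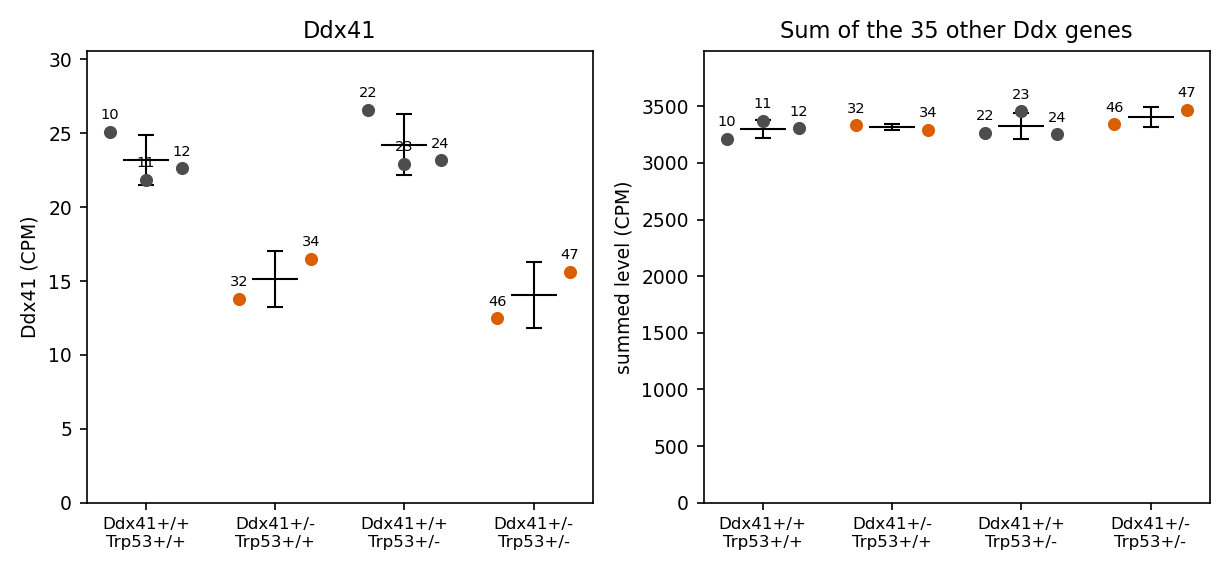
Levels in CPM of Ddx41 (left) and of the sum of the 35 other Ddx genes (right) by genotype; each point is 1 mouse with its number, and bars give the mean and SD of 2 or 3 mice. Ddx41 was 12.5 to 16.5 CPM in the 4 Ddx41+/- mice and 21.9 to 26.6 CPM in the 6 Ddx41+/+ mice, while the sum of the others overlapped across the genotypes.

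The summed level of the rest of the family overlapped between the Ddx41 genotypes. Summed over the 35 other members, the level was 3215 to 3370 CPM in Ddx41+/+Trp53+/+, 3294 and 3334 CPM in Ddx41+/-Trp53+/+, 3255 to 3456 CPM in Ddx41+/+Trp53+/- and 3342 and 3469 CPM in Ddx41+/-Trp53+/- mice. The lowest sum was that of mouse 10 and the highest that of mouse 47. Ddx41 itself made up 0.645 to 0.808% of the family's counts in Ddx41+/+ mice and 0.372 to 0.499% in Ddx41+/- mice, so the counts it lost were few against the family's total.

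Gene by gene, Ddx41 was the 1 member of 34 called in the pooled Ddx41 comparison (adjusted p under 0.05 and fold over 1.5), where 0.110% of the 11846 tested genes were called and 0.0338% were called lower. It ranked 4 by p among all tested genes. None of the 33 other members was called in either direction, and their log2 fold changes ranged from -0.28 to 0.42 with a median of 0.0088, against 0.00044 over all tested genes. At an unadjusted p under 0.05, Ddx5 was higher and Ddx41, Ddx1, Ddx18 and Ddx42 were lower, 5 of 34 members where 8.98% of all tested genes passed. No member other than Ddx41 was called by edgeR or DESeq2 under any alternative setting in any of the 5 comparisons.

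The intervals show how large a change could have been missed. For 30 of the 34 members the whole 95% interval of the pooled log2 fold change lay inside a 1.5-fold change in both directions, as it did for 65.8% of all tested genes. Besides Ddx41, the exceptions were Ddx28, Ddx31 and Ddx60, with intervals of -0.23 to 0.75, -0.78 to 0.21 and -0.18 to 1.02 on the log2 scale. A rise of Ddx28 or Ddx60 or a fall of Ddx31 by more than 1.5-fold thus lay within these pooled intervals. Within 1 Trp53 genotype fewer members were bounded so. The interval lay inside 1.5-fold for 23 of 34 members with Trp53+/+ and 27 with Trp53+/-, against 51.3 and 54.7% of all tested genes. With Trp53+/+, the intervals of Ddx10 (-0.0055 to 0.86), Ddx51, Ddx55 and Ddx58 also held a rise of more than 1.5-fold. Those of Ddx4, Ddx19b and Ddx56 held such a fall.

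**Figure D2:**
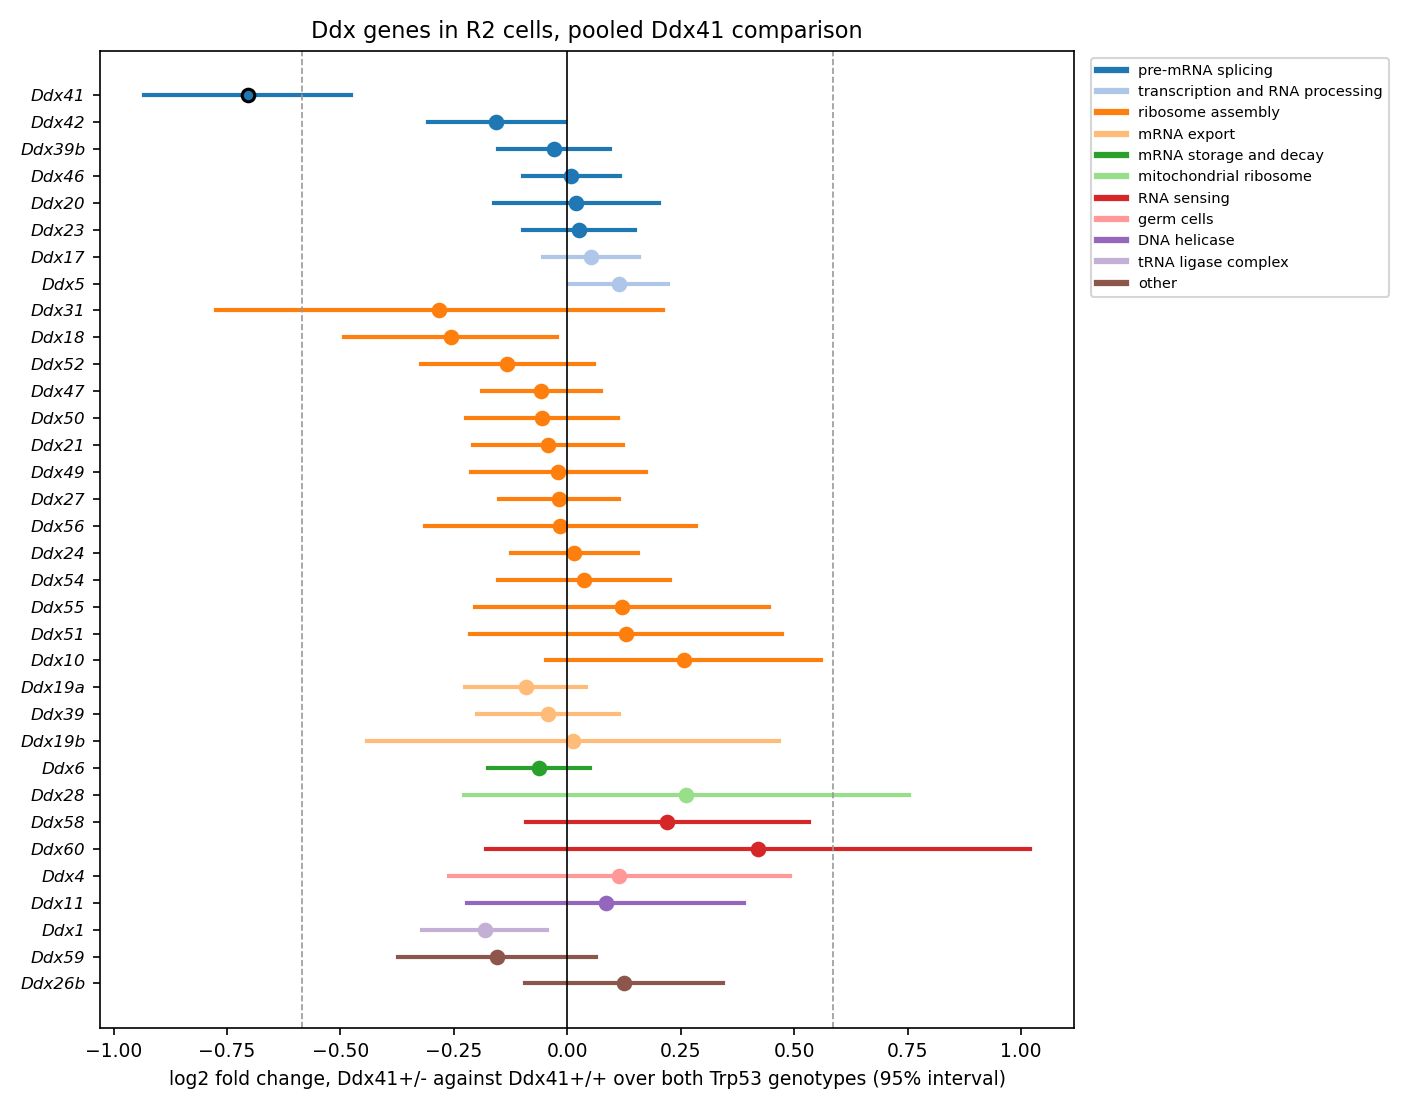
Log2 fold change of Ddx41+/- against Ddx41+/+ over both Trp53 genotypes for the 34 tested members, colored by role; points are estimates, lines 95% intervals, dashed lines a 1.5-fold change, and the black ring marks a called gene. Ddx41, at -0.70, was the 1 called member, and the others lay between -0.28 and 0.42.

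Ddx41 was the exception among the 6 members of pre-mRNA splicing. Ddx42, which works with the U2 particle, had 112, 97.9 and 112 CPM in Ddx41+/+Trp53+/+, 87.5 and 90.9 CPM in Ddx41+/-Trp53+/+, 94.5, 101 and 82.9 CPM in Ddx41+/+Trp53+/- and 87.7 and 91.3 CPM in Ddx41+/-Trp53+/- mice. Its groups were apart among Trp53+/+ mice and overlapped among Trp53+/- mice, with a pooled log2 fold change of -0.16 (SE 0.071, adjusted p = 0.536). Ddx46, which acts when the branch point is recognised, Ddx23, a part of the tri-snRNP, Ddx20, which works with the SMN complex, and Ddx39b, which joins splicing to export, had pooled log2 fold changes of 0.0088, 0.026, 0.020 and -0.029. Their intervals all lay inside 1.5-fold, from -0.16 for the lowest bound to 0.20 for the highest.

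Ddx5 and Ddx17 are close relatives that act in transcription, splicing and microRNA processing. Ddx5 had 838, 912 and 947 CPM in Ddx41+/+Trp53+/+, 999 and 930 CPM in Ddx41+/-Trp53+/+, 912, 1049 and 996 CPM in Ddx41+/+Trp53+/- and 1050 and 1099 CPM in Ddx41+/-Trp53+/- mice. The groups overlapped among Trp53+/+ mice and were apart among Trp53+/- mice, and the pooled log2 fold change was 0.11 (SE 0.052, adjusted p = 0.538). For Ddx17 it was 0.052 (SE 0.050).

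Of the 14 members of ribosome assembly, which act in the nucleolus on pre-ribosomal RNA, 5 were above and 9 below 0 in the pooled comparison. Their median was -0.019, against 0.00044 over all tested genes. None of the 14 was called, where 0.110% of all tested genes were called. Ddx18 had 20.1, 22.7 and 17.0 CPM in Ddx41+/+Trp53+/+, 17.7 and 17.5 CPM in Ddx41+/-Trp53+/+, 16.2, 14.2 and 15.4 CPM in Ddx41+/+Trp53+/- and 11.3 and 12.9 CPM in Ddx41+/-Trp53+/- mice. The 2 mice with both lesions were the lowest of the 10, and the pooled log2 fold change was -0.26 (SE 0.11, adjusted p = 0.527). For Ddx18, 50.2% of the 75-base stretches occurred in pseudogene transcripts too, so its counts depend on how such reads were assigned.

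Ddx10 had 5.91, 5.88 and 6.78 CPM in Ddx41+/+Trp53+/+, 8.58 and 8.00 CPM in Ddx41+/-Trp53+/+, 8.5, 8.65 and 7.33 CPM in Ddx41+/+Trp53+/- and 9.82 and 7.57 CPM in Ddx41+/-Trp53+/- mice. The 3 Ddx41+/+Trp53+/+ mice were the lowest of all, and the pooled log2 fold change was 0.26 (SE 0.14, adjusted p = 0.625). It was 0.43 (SE 0.21, adjusted p = 0.529, edgeR's quasi-likelihood test) with Trp53+/+ and 0.093 (SE 0.20) with Trp53+/-. Ddx31 fell between 1.85 and 3.71 CPM over all mice. Its lowest values, 2.15 and 1.85 CPM, were those of the Ddx41+/-Trp53+/- mice. The Ddx41+/-Trp53+/+ mice, at 2.80 and 3.30 CPM, overlapped the 2.53 to 3.27 CPM of the Ddx41+/+Trp53+/+ mice.

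The members of mRNA export, Ddx19a, Ddx19b and Ddx39, had pooled log2 fold changes of -0.091, 0.013 and -0.043, and Ddx6, which represses and helps to decay mRNA in P-bodies, had -0.062. None of these was called, where 0.110% of all tested genes were called. Ddx1, a part of the tRNA ligase complex, had 71.0, 76.7 and 75.5 CPM in Ddx41+/+Trp53+/+, 63.9 and 59.2 CPM in Ddx41+/-Trp53+/+, 66.9, 60.3 and 62.7 CPM in Ddx41+/+Trp53+/- and 58.0 and 60.4 CPM in Ddx41+/-Trp53+/- mice. The Ddx41+/+Trp53+/+ mice stood above all other mice for Ddx1, whereas they were the lowest for Ddx10. How many tested genes set this genotype apart was not counted. The pooled log2 fold change of Ddx1 was -0.18 (SE 0.065, adjusted p = 0.436).

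Ddx58, which encodes the RNA sensor RIG-I, and Ddx60, its antiviral cofactor, had pooled log2 fold changes of 0.22 (SE 0.15, adjusted p = 0.690) and 0.42 (SE 0.28, adjusted p = 0.693). With Trp53+/+ and Trp53+/- in turn, the values were 0.36 (SE 0.21) and 0.088 (SE 0.21) for Ddx58. For Ddx60 they were 0.17 (SE 0.41) and 0.66 (SE 0.40). Ddx60 had 3.48, 2.28 and 5.95 CPM in Ddx41+/+Trp53+/+, 5.35 and 3.05 CPM in Ddx41+/-Trp53+/+, 1.90, 4.33 and 3.14 CPM in Ddx41+/+Trp53+/- and 4.07 and 6.0 CPM in Ddx41+/-Trp53+/- mice. The 10 mice differed by up to 3.16-fold, and the Ddx41 genotypes overlapped in both Trp53 genotypes. Ddx28, which acts in assembly of the mitochondrial ribosome, had 2.69 CPM in mouse 10 and 5.59 to 8.51 CPM in the 9 other mice. Its log2 fold change with Trp53+/+ of 0.46 (SE 0.33) came to 0.12 without mouse 10. Ddx4, known from germ cells, had 39 to 133 counts in every mouse, and its highest value, 7.46 CPM in mouse 47, stood above the 4.5 to 5.64 CPM of the others.

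**Figure D3:**
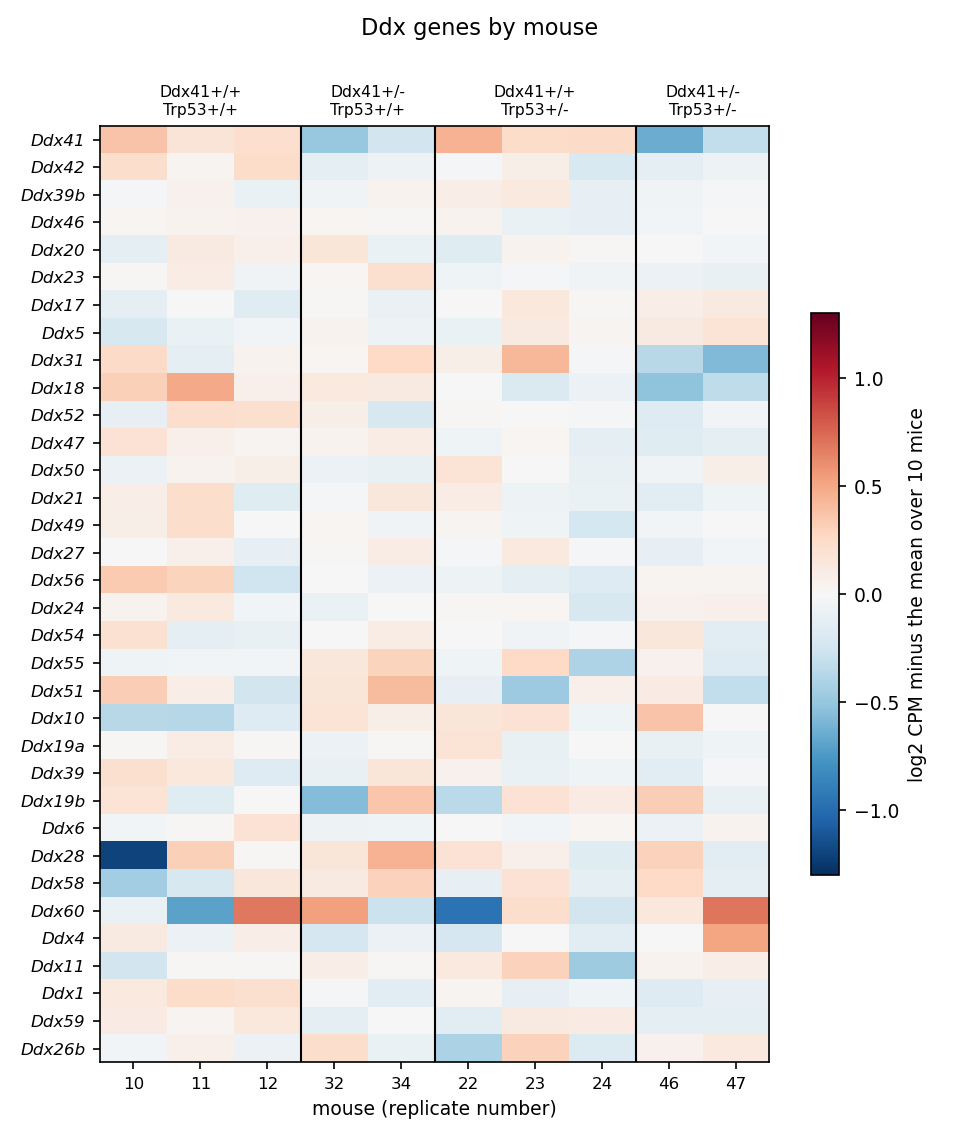
Log2 CPM of each tested member in each mouse minus its mean over the 10 mice, with members ordered by role and then by pooled log2 fold change. Ddx41 is the 1 row that is lower in all 4 Ddx41+/- mice than in all 6 Ddx41+/+ mice, and Ddx28 shows the single low value of mouse 10.

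In the comparisons within 1 Trp53 genotype no member was called, where 0.540% of tested genes were called with Trp53+/+, 0.0422% with Trp53+/- and 0.0675% in the test of their difference. At an unadjusted p under 0.05 edgeR gave 3 members with Trp53+/+ (Ddx41, Ddx1 and Ddx42, all lower), 1 with Trp53+/- (Ddx41) and 0 for the difference, against 9.64, 3.75 and 5.01% of tested genes. With Trp53+/+ the mice of the Ddx41 genotypes did not overlap for 9 members, with Ddx10 and Ddx55 higher and Ddx1, Ddx4, Ddx6, Ddx19a, Ddx41, Ddx42 and Ddx59 lower, as for 24.9% of tested genes. With Trp53+/- they did not overlap for 9 members, with Ddx5, Ddx24 and Ddx56 higher and Ddx18, Ddx23, Ddx27, Ddx31, Ddx41 and Ddx52 lower, as for 20.0% of tested genes.

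Ddx41 was the 1 member that did not overlap in the same direction in both, which 3.56% of tested genes did, and the 1 member for which all 4 Ddx41+/- mice lay on one side of all 6 Ddx41+/+ mice, as for 1.57% of tested genes. Ddx31 and Ddx4 had effects on opposite sides of 0, with log2 fold changes of 0.070 and -0.19 with Trp53+/+ and of -0.64 and 0.39 with Trp53+/-. The test of the difference gave p of at least 0.105 for all 34 members. The direction was the same in both Trp53 genotypes for 23 of 34 members (67.6%), against 56.9% of all tested genes.

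**Figure D4:**
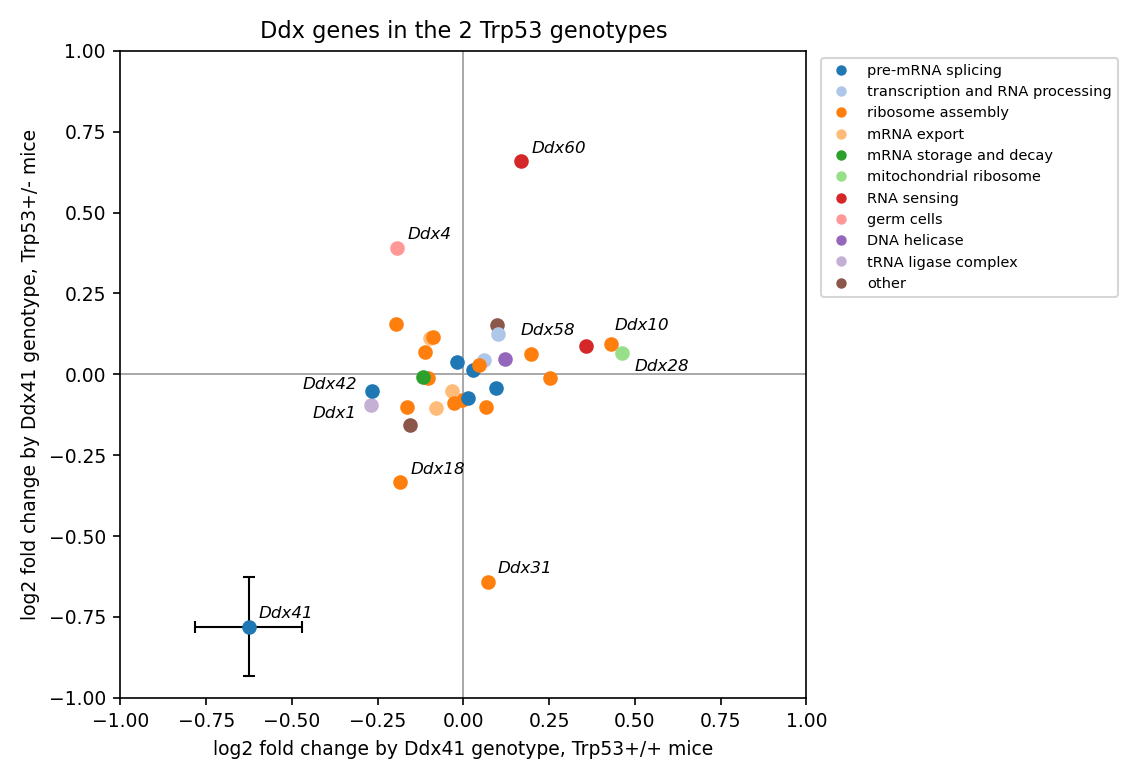
Log2 fold change of Ddx41+/- against Ddx41+/+ in Trp53+/+ mice (x axis) and in Trp53+/- mice (y axis) for the 34 tested members, colored by role, with the SE drawn for Ddx41. Ddx41, at -0.63 and -0.78, stands apart in the lower left, while Ddx31 and Ddx60 reach their largest values with Trp53+/- alone.

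The level of Ddx41 was nearly the same with Trp53+/+ and Trp53+/-. Ddx41 averaged 19.98 CPM in the 5 Trp53+/+ and 20.17 CPM in the 5 Trp53+/- mice, with a log2 fold change of 0.0015 (SE 0.10, 95% interval -0.22 to 0.22) over both Ddx41 genotypes. Trp53 itself was 57.4 to 68.1 CPM in Trp53+/+ and 40.3 to 46.2 CPM in Trp53+/- mice. No member was called in the Trp53 comparison, where 0.287% of tested genes were called. At an unadjusted p under 0.05, Ddx5 and Ddx17 were higher and Ddx18, Ddx47 and Ddx1 were lower, where 11.2% of all tested genes passed.

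Ddx18 had the smallest p of the family by Trp53 genotype, with a log2 fold change of -0.45 (SE 0.11, adjusted p = 0.0795, edgeR's quasi-likelihood test). Its values in all 5 Trp53+/- mice, 11.3 to 16.2 CPM, were below those of all 5 Trp53+/+ mice, 17.0 to 22.7 CPM. Ddx47, another factor of ribosome assembly, also did not overlap, at 58.0 to 65.9 against 66.2 to 73.5 CPM (log2 fold change -0.17, SE 0.060, adjusted p = 0.291), where 2.01% of tested genes did not overlap and 0.929% were lower without overlap. In the ribosome assembly group 12 of 14 members were below 0 in this comparison, with a median of -0.11 against -0.0024 over all tested genes. None of the 14 was called, where 0.287% of all tested genes were called. In the same comparison all 4 B cell markers were above 0, each at an unadjusted p under 0.05 and with a median log2 fold change of 0.75, and all 5 macrophage markers were below 0, with 1 at an unadjusted p under 0.05 and a median of -0.34. None of these markers was called in the Trp53 comparison, and their part in the result was not tested.

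Levels between genes were compared per kilobase of exon. Ddx5 was the highest member at 168.5 CPM per kilobase averaged over 10 mice, followed by Ddx6 at 51.4, Ddx17 at 49.3, Ddx39b at 45.1 and Ddx39 at 32.04. Ddx5 lay clear of all others in every mouse, whereas Ddx6 overlapped Ddx17 and Ddx17 overlapped Ddx39b, which lay clear of Ddx39. Counts on 5 genes made up 62.7% of the family's counts. Ddx41 ranked 18th of 36 at 7.47 CPM per kilobase, between Ddx49 at 8.41 and Ddx20 at 7.14, and overlapped both. This put it at the 64.3rd percentile of tested genes, and 23 members lay above the median tested gene at 3.60. The lowest tested members were Ddx51 at 1.48, Ddx55 at 1.40, Ddx31 at 0.794, Ddx19b at 0.597 and Ddx60 at 0.455 CPM per kilobase. Only 4 pairs of neighbours in the order were clear of overlap over the mice.

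**Figure D5:**
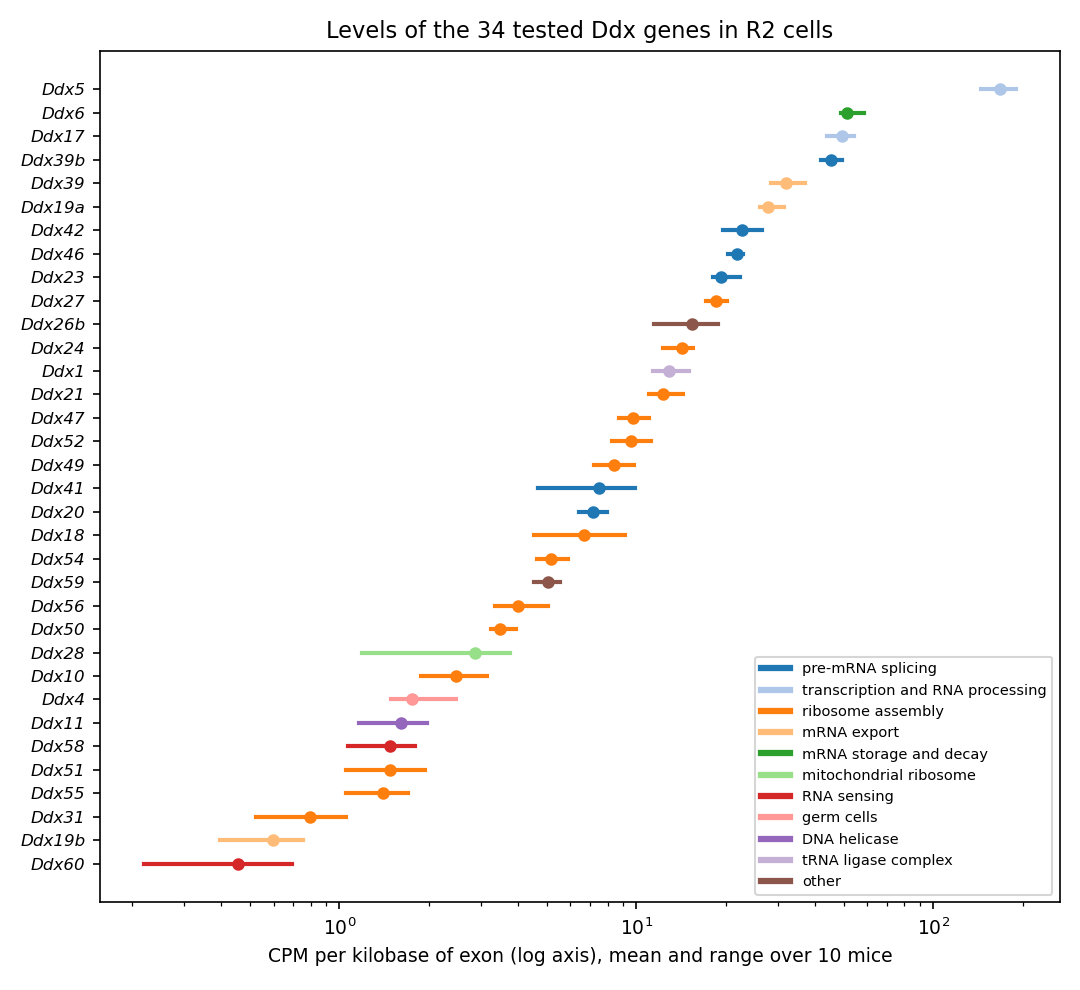
Level of the 34 tested members in CPM per kilobase of exon on a log axis; points are means over 10 mice, lines the range, and colors the role. Ddx5 stands highest at 168.5 and Ddx60 lowest at 0.455, with Ddx41 in the middle at 7.47.

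Helicases that the symbol rule leaves out were examined by lists. The 16 DEAH-box helicases, taken by their Dhx symbols, include the enzymes that drive the late steps of splicing. None of the 16 was called in the pooled Ddx41 comparison, where 0.110% of all tested genes were called. Of the 16, 5 were above and 11 below 0, and the median was -0.039 against 0.00044 over all tested genes. Their smallest p were those of Dhx37 and Dhx38, with log2 fold changes of 0.24 and 0.072. A list of 10 other RNA helicases included Eif4a1, Eif4a2 and Eif4a3, which are DEAD-box proteins without a Ddx symbol. Their pooled log2 fold changes were -0.070, 0.10 and -0.075. None of the 10 was called either, with a median of -0.073. Of these, Upf1, the helicase of nonsense-mediated decay, had 210, 215 and 216 CPM in Ddx41+/+Trp53+/+, 248 and 268 CPM in Ddx41+/-Trp53+/+, 205, 254 and 215 CPM in Ddx41+/+Trp53+/- and 243 and 266 CPM in Ddx41+/-Trp53+/- mice. Its groups were apart among Trp53+/+ mice and overlapped among Trp53+/- mice, and its pooled log2 fold change was 0.22 (SE 0.061, adjusted p = 0.236). Snrnp200, the helicase of the U5 particle, had -0.095.

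Among 19 partners of Ddx41 in the late spliceosome none was called in the pooled comparison, where 0.110% of all tested genes were called. Of the 19 partners, 17 were below 0 and 2 above, with a median of -0.052 against 0.00044 over all tested genes. With Trp53+/+, 14 were below 0 and 5 above (median -0.082). With Trp53+/-, 12 were below 0 and 7 above (median -0.012). The lowest value was -0.16 for Cwc22, a splicing factor that also recruits the exon junction complex. Prpf8, the core protein of the spliceosome, was the 1 partner with an unadjusted p under 0.05 (log2 fold change -0.12, SE 0.058, adjusted p = 0.549). Over all tested genes, 8.98% passed this limit. All 19 intervals lay inside 1.5-fold, as did 65.8% of those of all tested genes.

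Genes around Ddx41 were looked at for a wider change at the locus. Of the 20 tested genes within 500000 bases of Ddx41 none was called in the pooled comparison (edgeR, lowest adjusted p 0.535), against 0.110% of all tested genes. An unadjusted p under 0.05 was seen for 1 of the 20, against 8.98% of all tested genes. None separated the Ddx41 genotypes, against 1.57% of all tested genes. At such shares, no call among 20 genes says little about the locus. Ddx46, the family member on the same stretch at chr13:55635027-55681256, had 163, 165 and 166 CPM in Ddx41+/+Trp53+/+, 163 and 162 CPM in Ddx41+/-Trp53+/+, 164, 150 and 149 CPM in Ddx41+/+Trp53+/- and 156 and 160 CPM in Ddx41+/-Trp53+/- mice. It was among the steadiest members, with a pooled log2 fold change of 0.0088 (SE 0.051, 95% interval -0.098 to 0.12).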

How the data were processed

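The deposited values are whole read counts for each symbol in every library, not normalized by the authors. The submitters' processing notes name FastQC 0.11.7, HISAT2 2.0.5, featureCounts 1.5.2 and mm10. The paper names the TruSeq RNA v2 kit and the labels a stranded TruSeq mRNA kit. The strand setting and annotation are not given in the sources used here, so overlapping and antisense genes may share reads. The submitters' name for the deposited counts marks 35 and 45 as removed, so these mice were not available here. Their genotypes and the reason are not given in the sources used here. Among the mice kept, those with the nearest numbers, 32, 34, 46 and 47, are all Ddx41+/-. Whether the removal fell on the Ddx41+/- genotypes alone is therefore open.

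The count models were edgeR 4.0.16 in R 4.3.3. The filter by genotype left 11846 genes, and libraries were scaled by TMM. Quasi-likelihood models had 1 mean per genotype (comparisons within Trp53 genotypes and their difference) or additive Ddx41 and Trp53 terms (pooled comparisons). All p-values are two-sided, Benjamini-Hochberg adjustment covered every tested gene, and called genes had an adjusted p under 0.05 and a fold over 1.5. Ddx41 was also tested with exact permutation of log2 CPM (prior count 2). Library pairs differed beyond sampling noise (chi-square per degree of freedom 6.06 to 22.3 over 45 pairs). The 95% intervals are those of the quasi-likelihood fits and include the spread between mice. Reads had no molecular identifiers. The procedure was tested on simulated data.

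Positions, lengths and coding sequences are from GENCODE M21 on GRCm38 (mm10), and all 36 symbols matched. Shared sequence was the share of 75-base stretches of the longest transcript found in transcripts of other genes. Members, role groups and lists were chosen with earlier results of these data known. Genes named are Ddx41, any member called, the 5 members with the largest change and the 5 with the smallest p in each Ddx41 comparison (3 with the smallest p in the difference and in the Trp53 comparison), those apart in both Trp53 genotypes, the 5 highest and 5 lowest by level, and the 2 of each list with the smallest p. Others are named where a group or count required it, after their values were seen. Alternatives were DESeq2 1.42.0, its size factors, the likelihood ratio test, no filter, a minimum of 10 counts in every library, fits of the 2 genotypes alone, other call rules and each mouse left out.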

Additional observations from a re-analysis of the deposited data

How the results depend on the processing

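No paired analysis was made because no pairing of mice between genotypes is given in the sources used here. The log2 fold change of Ddx41 was called with Trp53+/+ under DESeq2 (-0.63), no filter on low counts (-0.63) and the likelihood ratio test (-0.63), and with Trp53+/- under the same 3 settings (-0.78, -0.78 and -0.78). The number of members called was then 1 in each, and also 1 in each where an unadjusted p under 0.05 was asked for together with a fold over 1.5. These 3 settings test with a different spread estimate or more genes, and the cause was not tested. With each mouse left out, the log2 fold change of Ddx41 ranged from -0.75 to -0.50 with Trp53+/+, from -0.94 to -0.62 with Trp53+/- and from -0.76 to -0.63 pooled. The pooled call held in 7 of 10 such fits and in all 5 other settings, and the number of members called ranged from 0 to 1 with a mouse left out. The difference between the Trp53 genotypes ranged from -0.31 to 0.0017, above 0 without mouse 46 alone, and the effect of Trp53 on Ddx41 ranged from -0.046 to 0.055, turning below 0 in 5 fits. Ddx18 in the Trp53 comparison had adjusted p of 0.0133 to 0.209 over all alternatives, at a fold under 1.5 in each. With 2 or 3 mice per genotype, Ddx60, Ddx31 and Ddx28 had the largest standard errors of the 34 members in the pooled comparison (0.28, 0.23 and 0.23 on the log2 scale).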

Other observations

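Members near genes called in the Trp53+/+ comparison were looked up by position. Within 10000000 bases of Ddx49 and of Ddx60, 7 of 135 and 7 of 114 tested genes were called in that comparison, and 6 of 103 near Ddx39, against 0.540% of all tested genes. All 3 members lie on chromosome 8, and the stretches around Ddx49 overlap those of both Ddx60 and Ddx39, so the same called genes can be counted more than once. None of these members was called. Near Ddx41 none of 111 tested genes was called. Sequence shared with other genes also differed among members. For 9 of the 36 members more than 5% of the 75-base stretches of the longest transcript occurred in a transcript of another gene. These included Ddx49 at 31.5%, shared with the overlapping Homer3, and Ddx19a at 27.5% and Ddx19b at 10.4%, which share with each other.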
